A study of Mus musculus with 5 samples.

Results

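NEUROD2 is a basic helix-loop-helix transcription factor of postmitotic excitatory neurons of the cortex. Such factors pair with E proteins and bind E-boxes, short DNA words written CANNTG, whose central bases differ between family members. In the developing cortex NEUROD2 is known for its part in the maturation, migration and synapse formation of projection neurons. The regions described here are those at which antibodies 1 and 2 against NEUROD2 each gave a ChIP-Seq peak and antibody 3 gave none. They numbered 1984, or 15.7% of the 12637 merged regions of the series. They were chosen by the measured presence or absence of peaks, so that their overlap and their scores are given as a description without a test.

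ChIP-Seq recovers the DNA fragments that an antibody pulls down with a protein and sequences them. Chromatin came from the cerebral cortex of untreated BALB/c pups at postnatal day 0 (P0), and all 3 antibodies were used on wild-type tissue of this kind. The study's methods describe cortices pooled over littermates of either sex. Antibody 1 was ab168932, antibody 2 was ab104430 and antibody 3 was ab109406, with 1 library each. A library made with an antibody against GFP, a protein that these mice lack, served as control in the authors' peak calling, and the input DNA library was not used here. There were no replicate libraries of an antibody, and no sample without NEUROD2 was compared. The whole cortex holds neurons, progenitors, glia and vessels, and a region cannot be assigned to any of these cells from such data. The peak lists held 5202, 11196 and 3164 peaks of antibodies 1, 2 and 3, with no read counts, so that the depth behind a peak is unknown.

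Each deposited peak carries a score, minus 10 times the log10 of the p-value of the peak caller, and the scores ran from 50 to an upper limit of 3100. In the regions of antibodies 1 and 2 only, antibody 1 scores lay between 50.05 and 3100, and their quartiles were 61.0, 76.0 and 104. Antibody 2 scores lay between 50.15 and 3100, and their quartiles were 86.3, 126 and 183. The 2088 regions with peaks of all 3 antibodies had higher medians, of 166 for antibody 1 and 296 for antibody 2, and a median antibody 3 score of 100.1. The regions of antibodies 1 and 2 only were also shorter, with a median length of 384 bp (94 to 1636 bp) against 529 bp for all 3 antibodies.

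The sequences at the centre of some of these regions are shown first, since E-boxes are the feature that NEUROD2 recognises. They are the 200 bp around the midpoint of the highest scoring intronic region, in Macrod2 (an enzyme that removes ADP-ribose), of the highest scoring intergenic region, whose closest protein-coding gene is Zfand3, and of 6 high scoring regions in genes from lists of neuronal genes whose windows overlap no untranslated region. The genes are Celsr2 (an atypical cadherin), Dlgap4 (a postsynaptic scaffold), Dock1 (an activator of the GTPase RAC1), Grin2c (a subunit of the NMDA receptor), Zbtb18 (a transcriptional repressor needed for the differentiation of cortical neurons) and Tiam2 (another RAC1 activator). Listed genes with summed scores above that of Dock1 whose windows are not shown were Mapt, Pick1, Tubb3 and Dapk1, each with 0 E-boxes in the central window, and Kcnn2, which scored above Zbtb18 and Tiam2, with 2. All those shown are on the plus strand of GRCm38, read from the RefSeq assembly, with E-boxes in capitals. This is the C57BL/6J sequence, and bases that differ in BALB/c were not looked for.
Macrod2, intron, chr2:142334536-142334735: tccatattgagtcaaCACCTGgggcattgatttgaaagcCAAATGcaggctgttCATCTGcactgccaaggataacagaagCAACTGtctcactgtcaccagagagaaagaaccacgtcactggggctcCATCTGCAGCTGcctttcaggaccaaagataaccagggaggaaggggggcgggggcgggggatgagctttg
Intergenic, near Zfand3, chr17:29993595-29993794: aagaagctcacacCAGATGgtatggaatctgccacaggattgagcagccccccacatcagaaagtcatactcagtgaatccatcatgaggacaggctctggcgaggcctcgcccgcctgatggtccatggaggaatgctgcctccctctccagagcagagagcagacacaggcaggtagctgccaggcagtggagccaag
Celsr2, intron, chr3:108409898-108410097: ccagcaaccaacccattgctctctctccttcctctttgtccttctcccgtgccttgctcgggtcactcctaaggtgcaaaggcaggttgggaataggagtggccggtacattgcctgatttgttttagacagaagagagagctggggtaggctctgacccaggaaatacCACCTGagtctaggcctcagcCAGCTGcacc
Dlgap4, intron, chr2:156673424-156673623: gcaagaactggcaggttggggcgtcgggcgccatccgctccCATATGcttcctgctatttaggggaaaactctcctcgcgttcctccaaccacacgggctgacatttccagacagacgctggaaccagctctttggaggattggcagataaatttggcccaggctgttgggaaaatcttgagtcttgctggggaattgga
Dock1, intron, chr7:134725643-134725842: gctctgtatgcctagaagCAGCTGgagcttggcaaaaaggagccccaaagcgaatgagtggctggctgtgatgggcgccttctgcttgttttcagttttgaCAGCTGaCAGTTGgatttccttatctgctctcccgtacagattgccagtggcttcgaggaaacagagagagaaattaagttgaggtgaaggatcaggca
Grin2c, exon, chr11:115249850-115250049: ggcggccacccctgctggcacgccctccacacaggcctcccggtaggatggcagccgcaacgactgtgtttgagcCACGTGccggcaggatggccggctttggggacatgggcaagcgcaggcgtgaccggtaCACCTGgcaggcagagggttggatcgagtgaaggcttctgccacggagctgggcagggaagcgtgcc
Zbtb18, exon, chr1:177447479-177447678: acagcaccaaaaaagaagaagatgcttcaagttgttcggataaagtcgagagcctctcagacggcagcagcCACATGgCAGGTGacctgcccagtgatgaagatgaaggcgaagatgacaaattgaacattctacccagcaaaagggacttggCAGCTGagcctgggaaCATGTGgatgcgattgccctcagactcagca
Tiam2, intron, chr17:3338931-3339130: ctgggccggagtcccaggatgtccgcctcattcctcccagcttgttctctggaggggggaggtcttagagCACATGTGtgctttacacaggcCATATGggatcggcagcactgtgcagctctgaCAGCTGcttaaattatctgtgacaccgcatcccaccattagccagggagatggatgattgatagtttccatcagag
The Macrod2 window held 6 E-boxes, the Zbtb18 and Tiam2 windows 4 each, the Dock1 window 3, the Celsr2 and Grin2c windows 2 each, and the Dlgap4 and intergenic windows 1 each. At least 1 copy of CAGCTG was present in the Macrod2, Celsr2, Dock1, Zbtb18 and Tiam2 windows. The Dlgap4 window held CATATG, the Grin2c window CACGTG and CACCTG, and the intergenic window CAGATG. Scores with antibodies 1 and 2 were 382.85 and 392.05 in Macrod2, 197.21 and 312.57 in Celsr2, 161.61 and 252.88 in Dock1, 159.09 and 215.43 in Zbtb18, and 213.07 and 157.98 in Tiam2.

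Within the regions of antibodies 1 and 2 only, both antibodies marked nearly the same place. In 1934 regions (97.5%) there was a single peak of each antibody, and in 1016 (51.2%) the antibody 1 peak lay wholly inside the antibody 2 peak. The midpoints of the 2 peaks were a median of 42 bp apart, against 37 bp in regions of all 3 antibodies. The antibody 2 score was the higher in 1615 regions (81.4%), with a median ratio of 1.51 over the antibody 1 score. Across the 1984 regions the scores of both antibodies had a Spearman rho of 0.390, against 0.716 across the regions of all 3 antibodies. These are values across regions of the same libraries. The lower and upper quartiles of antibody 1 scores were 61.0 and 104 here, against 105 and 286 with all 3 antibodies. A rho depends on the range of scores, so the 2 values do not compare the antibodies at like scores. Both scores reached 100 in 477 regions (24.0%), against 1572 (75.3%) of the regions with all 3 antibodies.

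Whether a region with antibodies 1 and 2 also had an antibody 3 peak went with its scores. Of the regions whose antibody 1 score was between 50 and 60, 19.3% (Wilson 95% interval 16.3 to 22.7) also held an antibody 3 peak, and the share was 22.0% between 60 and 80, 40.3% between 80 and 120, 68.4% between 120 and 200, 88.8% between 200 and 400 and 98.7% from 400 up. By antibody 2 score the share went from 8.78% between 50 and 60 to 36.5% between 120 and 200 and 96.2% from 400 up. A site without NEUROD2 epitopes for antibody 3 and a site with too few antibody 3 reads for a peak cannot be told apart in these lists.

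**Figure D1:**
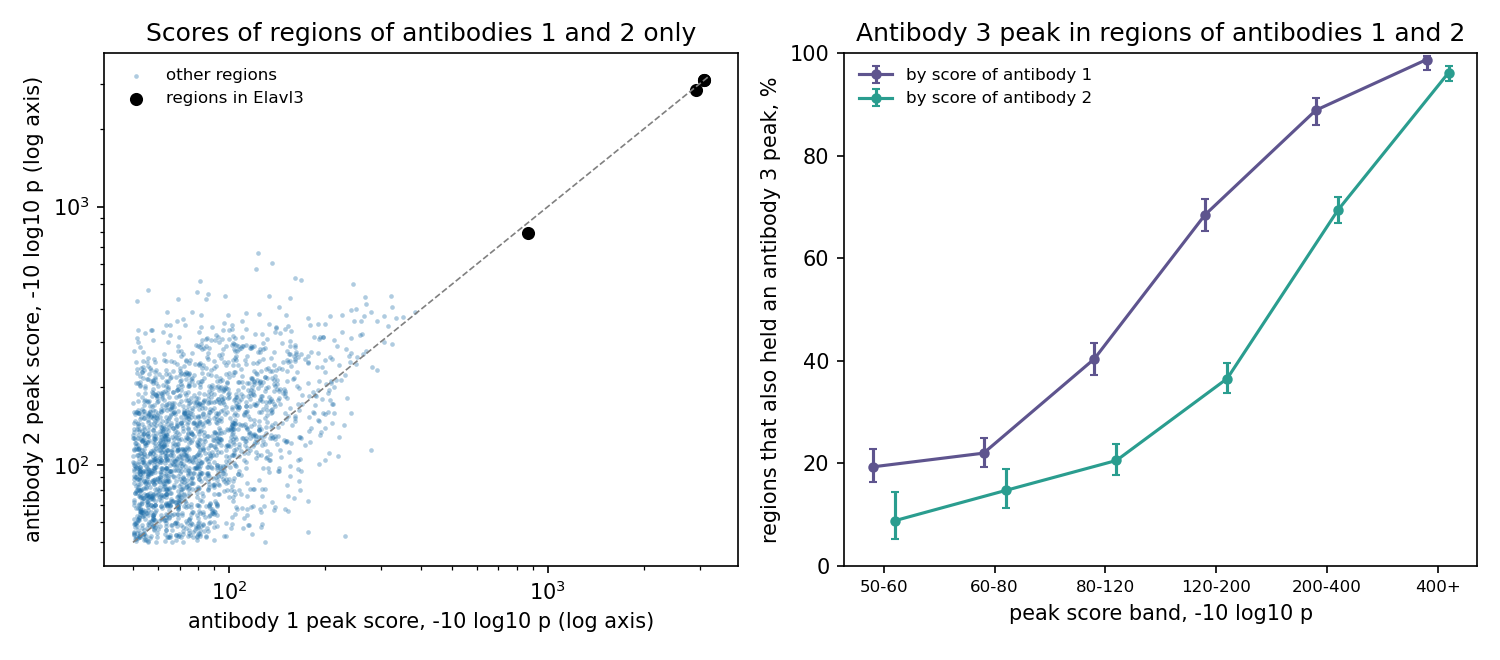
Left, the antibody 1 score (x axis) against the antibody 2 score (y axis) of each of the 1984 regions of antibodies 1 and 2 only, on log axes, with the 4 regions in Elavl3 in black and a dashed line where both scores are equal. Right, the percentage of regions with peaks of antibodies 1 and 2 that also held an antibody 3 peak, by score band, with Wilson 95% intervals; it went from 19.3% to 98.7% by antibody 1 score and from 8.78% to 96.2% by antibody 2 score.

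Few regions lay just outside an antibody 3 peak. The nearest antibody 3 peak was a median of 147034 bp away, 50 regions (2.52%) had one within 500 bp and 233 (11.7%) within 10000 bp. The region closest to one, at Ran (a GTPase of nuclear transport), ended 3 bp from an antibody 3 peak with a score of 174.69. It was followed by a region at Rbfox2 (a splicing regulator) and a region at Cux2 (a factor of upper layer neurons), each 22 bp from an antibody 3 peak. On the other side of the rule, the least shared sequence among the regions of all 3 antibodies was 24 bp, at Msra. At the score limit of 50, the lowest antibody 1 scores were 50.05 at Sema3f and 50.06 at Bicc1 and at Rbfox1, and 469 regions (23.6%) had an antibody 1 score below 60. The lowest antibody 3 score among the regions of all 3 antibodies was 50.03, and 317 of them (15.2%) had an antibody 3 score below 60.

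The regions of antibodies 1 and 2 only lay mostly away from transcription start sites (TSSs), as did the regions of all 3 antibodies. By the place of its midpoint in the GENCODE M21 annotation, a region was put in a promoter (within 1000 bp of a TSS), an exon, an intron or between genes. Promoters held 552 of the 1984 regions (27.8%, Wilson 95% interval 25.9 to 29.8), exons 87 (4.39%), introns 699 (35.2%) and intergenic sequence 646 (32.6%). The median distance to the closest TSS was 6900 bp, against 7353 bp for all 3 antibodies, 12116 bp for antibody 1 only and 1481 bp for antibody 2 only.

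The regions of antibody 1 only and those of antibody 2 only differed from these regions in opposite directions. Regions of antibody 1 only were in a promoter in 14.4% of cases, 13.4 percentage points less often (95% interval 10.4 to 16.3, Fisher's exact test, two-sided, Benjamini-Hochberg adjusted over 24 comparisons, p = 2.01e-16). With only peaks scoring at least 100 this difference was 8.18 points and did not pass (adjusted exact p = 0.0533). Regions of antibody 2 only were in a promoter in 47.5%, with a difference of -19.6 points for the regions of antibodies 1 and 2 (-21.9 to -17.3, adjusted exact p = 1.63e-54). Intronic regions made up 35.2% of the regions of antibodies 1 and 2 only, less than the 41.3% of antibody 1 only (adjusted exact p = 0.00249) and more than the 25.9% of antibody 2 only (adjusted exact p = 4.81e-15). Against the regions of all 3 antibodies (30.9% in promoters) the difference was -3.07 points (-5.86 to -0.27), with an exact p of 0.0329 that became 0.0564 after adjustment. It passed under 4 alternatives, at -3.23 points with peaks up to 200 bp apart merged, -3.47 with 0.5 of the shorter peak shared, -5.52 with only peaks scoring at least 100 and -6.95 with both scores at least 100 (adjusted exact p = 0.0377, 0.0290, 0.0115 and 0.00828). The 456 regions of antibody 3 only were not tested, and 30.5% of them were in a promoter, 32.2% in an intron and 32.9% between genes. These tests treat regions as units. They cover counting error over regions of single libraries and not the variation between mice or library preparations.

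**Figure D2:**
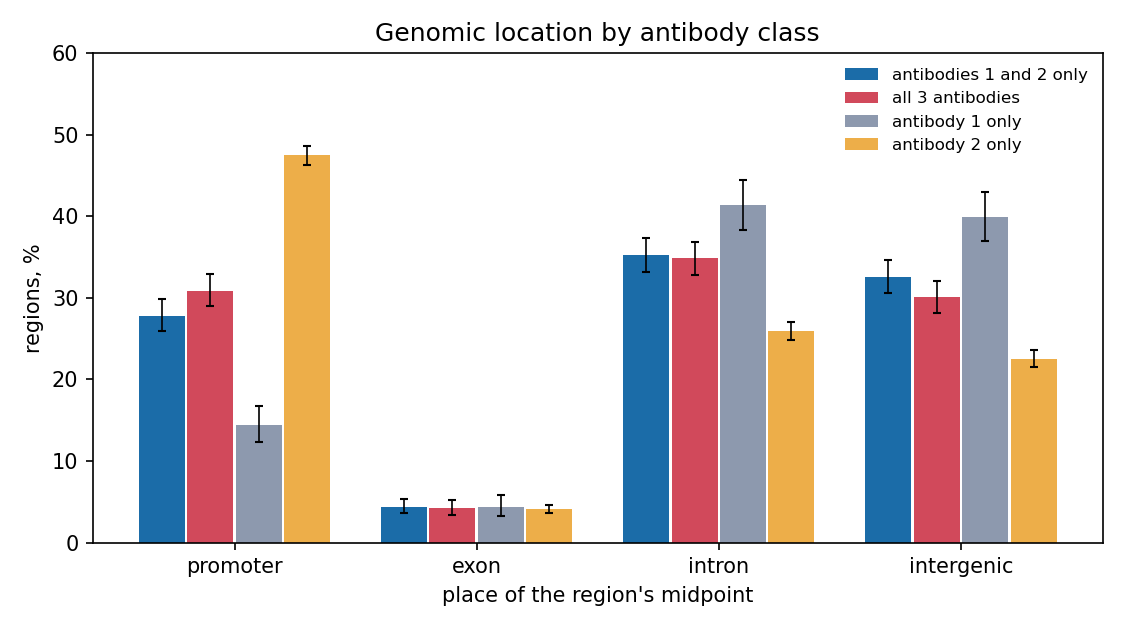
Percentage of regions (y axis) whose midpoint lay in a promoter, exon, intron or intergenic sequence, for the 4 classes of antibodies, with bars from 0 and Wilson 95% intervals. The share in promoters was 27.8% for antibodies 1 and 2 only, 30.9% for all 3 antibodies, 14.4% for antibody 1 only and 47.5% for antibody 2 only.

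When regions of like antibody 2 score were compared, the difference from the regions of all 3 antibodies took the other sign. Between scores of 50 and 100, 21.6% of the regions of antibodies 1 and 2 only and 18.5% of the regions of all 3 antibodies were in a promoter. The shares were 27.97% and 25.7% between 100 and 200, and 37.99% and 33.4% from 200 up. None of the 15 comparisons of location and sequence in these bands passed adjustment (Fisher's exact test, smallest adjusted p = 0.443, with 0 at an unadjusted p under 0.05). In the same bands 44.8%, 54.7% and 63.8% of the regions of antibody 2 only were in a promoter. The regions of antibodies 1 and 2 were lower than these by 23.2, 26.7 and 25.8 points, each with an adjusted exact p of at most 8.53e-08, in a comparison chosen after the data were seen.

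**Figure D3:**
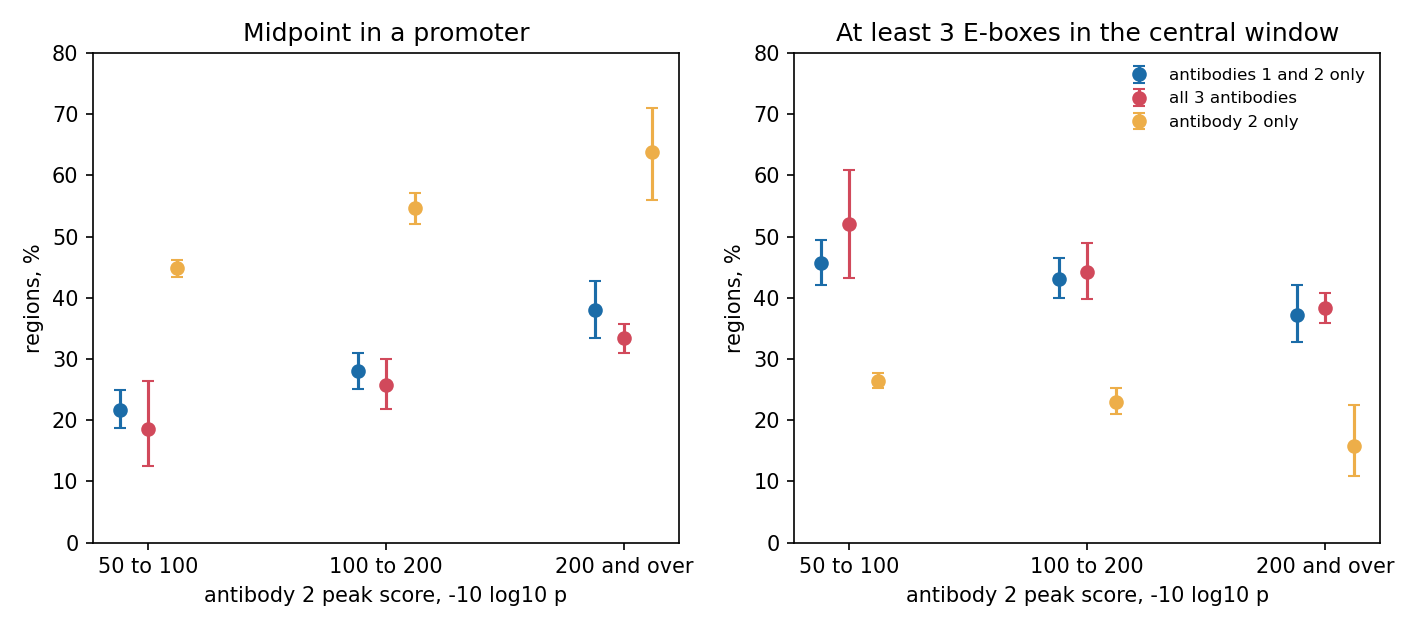
Percentage of regions (y axes) with the midpoint in a promoter (left) and with at least 3 E-boxes in the central 200 bp (right), by band of antibody 2 score (x axes), with Wilson 95% intervals. The intervals of antibodies 1 and 2 only and of all 3 antibodies overlap in every band, and those of antibody 2 only stand apart, at 44.8 to 63.8% in promoters and 15.8 to 26.4% with at least 3 E-boxes.

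Most regions of antibodies 1 and 2 only held an E-box at the centre, more often than regions of antibody 1 only or of antibody 2 only. CANNTG was searched in the central 200 bp, where it reads the same on both strands and overlapping copies were counted. At least 1 E-box was present in 1802 regions (90.8%, Wilson 95% interval 89.5 to 92.0), against 1864 (89.3%) of the regions of all 3 antibodies, a difference of 1.55 points (-0.29 to 3.39, adjusted exact p = 0.148). At least 3 were present in 850 regions (42.8%), against 40.4% (adjusted exact p = 0.149). The mean was 2.44 E-boxes per window in both classes. The share was lower in both classes with 1 of these antibodies: 83.1% of antibody 1 only (adjusted exact p = 6.42e-09) and 79.6% of antibody 2 only (adjusted exact p = 2.46e-33) had at least 1, with means of 2.15 and 1.74. With only peaks scoring at least 100, the difference from antibody 1 only was 2.13 points in place of 7.68 and did not pass (adjusted exact p = 0.496). The difference from antibody 2 only, 11.3 points over all regions, was 13.5 within promoters and 3.05 outside them (adjusted exact p = 2.10e-09 and 0.000214). In windows of 400 bp it was 5.97 points.

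The regions also held more E-boxes than the DNA beside them. Windows of 200 bp that began 2000 bp outside the edges held a mean of 1.13 E-boxes, and 66.3% of these 3915 windows held at least 1. The mean at the centre was 2.16 times that of the flanks. The centre was higher in 1409 regions and lower in 379 (exact sign test, two-sided, p = 4.70e-139). In the 552 promoter regions the mean was 1.51 at the centre and 1.09 in the flanks, a ratio of 1.39, with the centre higher in 284 and lower in 193 (exact sign test, p = 3.59e-05). In the 1432 regions outside promoters the mean was 2.80 and the ratio 2.44. The regions of all 3 antibodies had ratios of 2.13 over all regions, 1.44 in promoters and 2.43 outside them. In promoters the ratio was 1.71 for antibody 1 only and 1.00 for antibody 2 only, and differences between the ratios of the classes were not tested.

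Around the midpoint, E-boxes reached 14.3 and 14.7 per kb in the 50 bp on each side. They were at 10.1 and 10.7 per kb in the next 50 bp and near 6 per kb beyond 250 bp. The regions of all 3 antibodies had 14.3 and 13.9 per kb at the midpoint, those of antibody 1 only 12.3 and 12.8, and those of antibody 2 only 10.2 and 10.3.

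**Figure D4:**
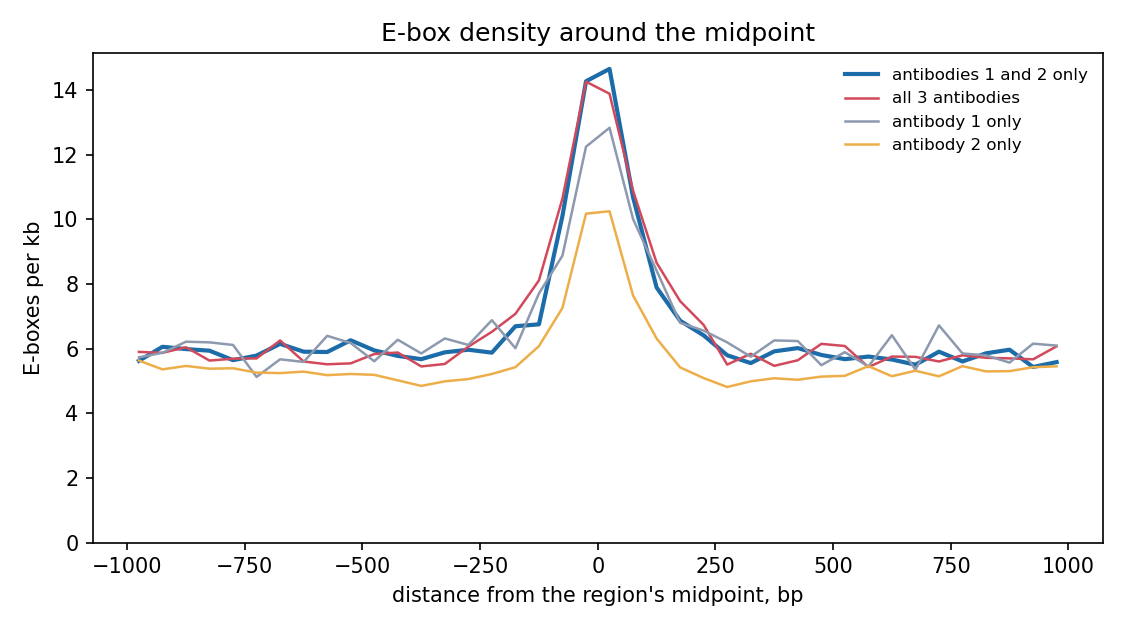
E-boxes per kb (y axis) in bins of 50 bp by distance from the region's midpoint (x axis, in bp), for the 4 classes. Regions of antibodies 1 and 2 only peak at 14.7 per kb, beside 14.3 for all 3 antibodies, 12.8 for antibody 1 only and 10.3 for antibody 2 only.

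Of the E-box forms, CAGATG (with its reverse CATCTG) and CAGCTG were the most common. CAGATG was present in 1045 regions (52.7%), against 15.3% of flanking windows and 9.88% of windows of the same length around 54333 TSSs of protein-coding genes. CAGCTG was present in 819 regions (41.3%), against 9.22% of flanks and 12.5% of those TSS windows. Against all 3 antibodies (54.4% and 41.8%) neither form differed after adjustment over 30 comparisons, with intervals of -4.79 to 1.33 and of -3.51 to 2.54 points (adjusted exact p = 0.479 and 0.805). Both forms were more frequent than in regions of antibody 1 only (40.6% and 30.3%, adjusted exact p = 2.75e-09 and 2.18e-08) and of antibody 2 only (39.0% and 31.5%, adjusted exact p = 2.69e-25 and 1.84e-14). The form CACATG was present in 384 regions (19.4%), against 15.6% of the regions of all 3 antibodies, a difference of 3.74 points (1.41 to 6.08, adjusted exact p = 0.00588), and in 16.4% of flanks and 6.75% of TSS windows. It was present in 20.1% of the regions of antibody 1 only (adjusted exact p = 0.805) and 12.4% of those of antibody 2 only (adjusted exact p = 3.00e-13). The difference from all 3 antibodies was 1.31 points in a window of 100 bp, 3.71 within promoters and 3.09 outside them, and did not pass the threshold in any of these. In a window of 400 bp it was 3.46 points and passed (adjusted exact p = 0.0412).

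Words of 17 other factor families were compared with the regions of all 3 antibodies, and 1 differed after adjustment. The RUNX word TGTGGTT, on either strand, was present in 83 regions (4.18%) against 44 (2.11%), a difference of 2.08 points (1.01 to 3.19, Fisher's exact test, adjusted p = 0.00238). It was present in 4.67% of flanks and 2.89% of TSS windows, so the regions of antibodies 1 and 2 only were near the level of the DNA beside them. In windows of 100 and 400 bp the difference was 0.37 and 1.37 points, and within promoters 1.45, and none of these passed. Outside promoters it was 2.25 points and passed (adjusted exact p = 0.0248). The GC box GGGCGG was present in 16.4% against 19.3% (adjusted exact p = 0.137), in 3.45% of flanks and in 37.3% of TSS windows. The homeobox word TAATTA was present in 2.97% against 1.87% (adjusted exact p = 0.137), in 5.47% of flanks and in 2.16% of TSS windows. The core of the CTCF motif, with at most 1 mismatch, was present in 8.37% against 8.67%, with an interval of -2.02 to 1.42 points, and in 2.48% of flanks and 2.76% of TSS windows. Windows rich in CpG made up 20.7% against 23.3% (p = 0.0412, adjusted exact p = 0.0659), with 7.47% for antibody 1 only and 39.1% for antibody 2 only. From antibody 1 only and antibody 2 only the differences were 13.2 and -18.5 points over all regions. They were 24.9 and -12.3 points within promoters, and 2.27 and -2.67 points outside them, each past the threshold. The difference of -2.66 points from all 3 antibodies became -6.33 with only peaks scoring at least 100 and -7.76 with both scores at least 100, past the threshold in both (adjusted exact p = 0.000617 and 0.000459). Within bands of antibody 2 score it was 5.26, 4.27 and 2.38 points and did not pass.

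The 4 highest scoring regions of antibodies 1 and 2 only were all in Elavl3, which encodes a neuronal RNA-binding protein. Elavl3 (ENSMUSG00000003410.8) lies on chromosome 9 at 22015005 to 22052023, on the minus strand. Its regions had scores of 3100 and 3100 over exon 7, 3100 and 3100 over exons 4 and 5, 2924.88 and 2827.06 over exon 2, and 868.15 and 790.32 over exon 3 with antibodies 1 and 2. Outside Elavl3, the highest scores in the class were 382.85 for antibody 1 and 659.98 for antibody 2. Of the 56 antibody 1 peaks and 105 antibody 2 peaks with a score of at least 1000, 4 and 3 lacked an antibody 3 peak, and all 7 of these were in Elavl3.

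The Elavl3 peaks followed the coding exons. Antibody 1 peaks covered 1053 of the 1101 coding bp (95.6%), antibody 2 peaks 1062 (96.5%) and antibody 3 peaks 0. The peaks left out the 39 bp of exon 6, and antibody 1 left out the 9 coding bp of exon 1. The last exon is 3850 bp long, 349 bp of it coding, and its antibody 1 peak covered all the coding part and ended 5 bp beyond it. At the TSS itself antibody 2 alone had a peak, with a score of 95.49. The related genes Elavl1, Elavl2 and Elavl4 held 0 regions of this class, and Elavl2 held 1 region of all 3 antibodies. The region over exons 4 and 5 counted as a promoter since the TSS of a shorter transcript lay 27 bp from its midpoint. Why the peaks followed the exons was not tested, and these 4 regions are uncertain as sites of NEUROD2 binding.

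The centres of the region over exon 7 and of the region over exons 4 and 5, which falls in part of exon 5 and the intron beside it, are shown to set them beside the windows above. Plus strand, GRCm38, with E-boxes in capitals.
Elavl3, exon 7, chr9:22018598-22018797: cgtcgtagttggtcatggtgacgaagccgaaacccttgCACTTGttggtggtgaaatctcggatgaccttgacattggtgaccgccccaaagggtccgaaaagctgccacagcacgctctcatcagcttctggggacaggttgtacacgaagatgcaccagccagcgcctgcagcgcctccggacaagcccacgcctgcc
Elavl3, exon 5 and the intron beside it, chr9:22026301-22026500: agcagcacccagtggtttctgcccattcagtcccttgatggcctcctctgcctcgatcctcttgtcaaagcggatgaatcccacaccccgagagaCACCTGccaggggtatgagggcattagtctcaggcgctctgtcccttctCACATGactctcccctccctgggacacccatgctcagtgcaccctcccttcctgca
They held 1 and 2 E-boxes, and the windows in exons 2 and 3 held 1 and 0. None of the 4 Elavl3 windows held CAGCTG or CAGATG. Leaving out the 4 regions changed no call on the shares in promoters, with at least 1 E-box, rich in CpG or in repeats, nor on the 3 E-box forms named above, the RUNX word and the CTCF core against all 3 antibodies. The other tests were not repeated without them.

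**Figure D5:**
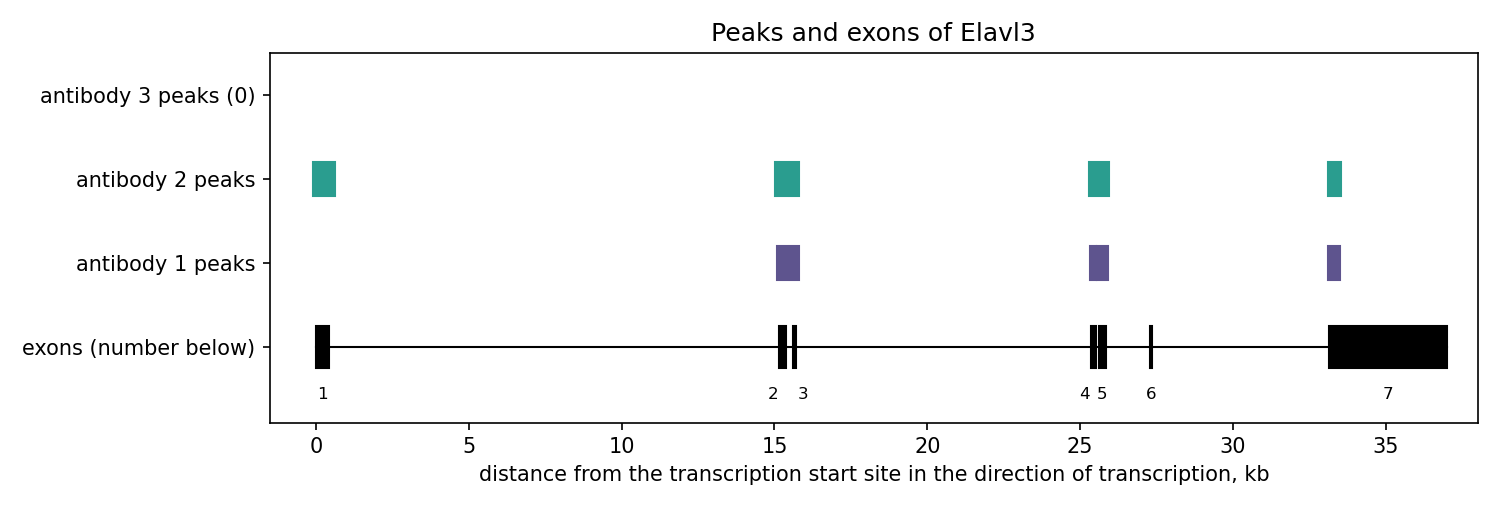
Exons of Elavl3 (black, numbered) and the peaks of antibodies 1, 2 and 3 by distance from the TSS in kb (x axis, in the direction of transcription). Antibodies 1 and 2 have peaks over exons 2, 3, 4, 5 and the start of exon 7, antibody 2 has a further peak at exon 1, and antibody 3 has 0 peaks in the gene.

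After Elavl3, the highest scoring regions were spread over promoters, introns and intergenic sequence. The promoter of Gpam (an enzyme of glycerolipid synthesis) had scores of 123.08 and 659.98 and 0 E-boxes in its central window. The Macrod2 intron shown above came next. An intron of Btbd11 had scores of 323.18 and 449.22 with 4 E-boxes, 34615 bp from the TSS. A region in Klhl35, 61 bp from the TSS of a transcript not annotated as coding and 2802 bp from the closest coding one, had scores of 136.05 and 606.92 with 1 E-box, of the form CACGTG. A region between genes, 11250 bp from the TSS of Jmy (an actin nucleation factor), had scores of 324.6 and 408.38 with 2 E-boxes. Another, 11038 bp from the closest protein-coding TSS, that of Zfand3, had scores of 245.64 and 500.08 with 1 E-box.

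By genes, 1210 of the 1984 regions (61.0%) lay in a protein-coding gene or its promoter and marked 1161 genes. That was 5.27% of the 22028 protein-coding genes, and 1187 genes, or 5.39%, had a region of all 3 antibodies. Both kinds of region were present in 251 genes, 21.6% of the former and 21.1% of the latter. A single region of antibodies 1 and 2 only was present in 1042 genes, 2 in 94 and 3 or more in 25. The share of genes marked rose with gene length, from 1.88% of genes under 10 kb to 2.98% from 10 to 30 kb, 6.53% from 30 to 100 kb, 15.6% from 100 to 300 kb and 31.7% of longer genes. The median length was 75.1 kb for marked genes and 17.3 kb for all protein-coding genes. The counts below are to be read against these shares, since many neuronal genes are long.

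Transcription factors of cortical layers held a region of antibodies 1 and 2 only in 10 of 30 genes (33.3%, median gene length 115 kb), and 8 of the 30 held a region of all 3 antibodies. The highest was Zbtb18, shown above, with a further region 13 bp from its TSS at scores of 99.56 and 117.66. Pou3f1 (a POU factor of upper layers) had a region over its exon at 69.3 and 289.32 and another in its promoter at 107.43 and 116.83. Inside Lhx2 (a LIM homeobox factor of the cortical primordium) a region was at 88.41 and 197.05, which lay 2367 bp from the Lhx2 TSS and counted as a promoter through the predicted gene Gm27197, 76 bp away. Sox5 (a factor of deep layer neurons) had 4 intronic regions with antibody 1 scores from 54.13 to 65.96. Cux1 and Cux2, markers of upper layers, had a region each, at 74.99 and 114.55 in the Cux1 promoter and at 89.66 and 57.1 in a Cux2 intron. None of the lists of neurogenic bHLH factors (15 genes), E proteins and Id factors (7) or immediate early genes (20) held such a region, and their median gene lengths were 3.22, 4.80 and 5.69 kb. Regions of all 3 antibodies were present in 3, 1 and 2 of these genes. The lists of the Notch pathway (24 genes), inhibitory interneurons (25) and cytosolic ribosomal proteins (34) held 0 as well, with regions of all 3 antibodies in 3, 1 and 2 genes. Their median gene lengths were 19.8, 11.9 and 3.91 kb. Of all protein-coding genes, 1.88% of those under 10 kb and 2.98% of those from 10 to 30 kb were marked, so few are expected in such lists. The list of progenitors and glia held 1 of 23 (4.35%, median length 21.5 kb), in Aldh1l1, and 1 with all 3 antibodies.

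Genes of axon guidance and migration were marked too. Of 50 guidance ligands and receptors, 15 (median length over the list 146 kb) held a region and 12 held a region of all 3 antibodies. Draxin was counted through a region 90 bp from the TSS of another gene, Mad2l2. Among the ligands, Slit1 had an intronic region at 132.95 and 236.12, and Slit3 had a pair of intronic regions. Sema3f had 7 E-boxes in the central window of an intronic region at 92.24 and 112.29. Among the receptors, Ephb2 had an intronic region at 144.41 and 171.61, the Ephb3 promoter was at 75.03 and 226.37, and Plxnd1 was at 131.64 and 146.99 over an exon. In Reelin signalling and radial migration, 4 of 19 genes (21.1%, median length 37.7 kb) held a region, against 6 with all 3 antibodies. Dab1, the intracellular adaptor of Reelin receptors, had 2 intronic regions at up to 283.58 with antibody 2. The kinase gene Fyn was at 139.34 and 129.51. The others were Reln itself and Rnd2, a small GTPase of migrating neurons. The Rnd2 region, at 76.67 and 157.77, counted as a promoter through the TSS of Vat1, 108 bp away. Of the L1, contactin and NCAM molecules 2 of 16 held a region (Cntnap2 and Nfasc, median length of the list 294 kb), and 7 of 16 held a region of all 3 antibodies.

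Genes of the cytoskeleton and dendrite growth had 12 of 32 genes marked (37.5%, median length 97.9 kb), against 7 with a region of all 3 antibodies. The promoters of Mapt (the microtubule protein tau) and Tubb3 (neuronal beta tubulin) were at 69.3 and 440.44, and at 99.3 and 379.3, each with 0 E-boxes in the central window. The introns of Dock1 and Tiam2 shown above held 3 and 4. Farp1 (a RAC1 activator of dendrites) had an intronic region at 106.92 and 164.86 with 10 E-boxes, 9 of them the same word, CATCTG. The cadherin group had 7 of 30 genes marked (23.3%, median length 149 kb), led by Celsr2, against 5.

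At the synapse, postsynaptic scaffolds were marked in 8 of 20 genes (median length 106 kb), against 6 with a region of all 3 antibodies. Dlg2 was counted through a region 75 bp from the TSS of another gene, Tmem126b. Dlgap4 had an intronic region at 185.34 and 312.31, the Pick1 promoter was at 149.76 and 337.11 with 0 E-boxes, and Shank1 had a region at 61.87 and 170.71, 880 bp from the TSS of a transcript not annotated as coding. Glutamate receptors and their auxiliary subunits were marked in 10 of 30 genes (33.3%, median length 232 kb), against 7. Among the receptor subunits, Grin2c was at 125.21 and 273.76 over an exon, an intron of Grik3 at 86.38 and 144.64, and the promoter of Gria2 at 109.1 and 76.97. The auxiliary subunit gene Cacng4 had intronic regions with 16 and 12 E-boxes in the central window, at antibody 2 scores of 281.83 and 80.85. These were mostly copies of the same words: CAGGTG 12 times in the former, and CAGATG 7 times and CATGTG 5 times in the latter. The latter region lay 27 bp from an antibody 3 peak. Neurexins, neuroligins and other organisers were marked in 5 of 22 genes (22.7%, median length 73.6 kb), against 6 with all 3 antibodies, with Ptprd at 103.39 and 137.04 and Nrxn3 with 2 intronic regions among them. Receptors for GABA were marked in 3 of 14 genes (median length 120 kb), against 2, among them Gabbr2, with an intronic region at 53.48 and 228.93.

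Ion channels and calcium genes held such regions as well. Potassium channels held a region in 7 of 29 genes (24.1%, median length 249 kb), against 6 with all 3 antibodies, with Kcnn2, a calcium-activated channel, at 210.42 and 172.52. Calcium and sodium channels held 3 of 23 (13.04%, median length 147 kb), against 5, among them Cacna1g at 55.75 and 96.16, close to the TSS of a transcript not annotated as coding. Genes of calcium store release and refill held 4 of 22 (18.2%, median length 109 kb), against 5, with Itpr1 at 101.3 and 128.17 and Ryr3 at 102.86 and 108.96, both channels of the endoplasmic reticulum, and the promoter of Calr, a calcium-binding chaperone, at 62.19 and 190.87. Kinases that depend on calmodulin held 3 of 12 (median length 60.9 kb), against 4, with Dapk1 at 102.2 and 346.62 in its promoter, with 0 E-boxes. A last list held genes that were named in the study for its ChIP-Seq data, and so was chosen on these libraries and is no independent sign of any share. Of its 23 genes, 3 (Cux1 and Nrxn3 among them) held a region of antibodies 1 and 2 only and 18 a region of all 3 antibodies.

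A few annotated genes held several regions. Gm20388, a readthrough model of 4435 kb that spans other genes, held 18 regions and 18 regions of all 3 antibodies. Fgfr2, annotated over 2961 kb, held 5 and 10. For all of these 5 but the one that starts at chr7:130184781, the closest coding TSS was that of another gene, Tacc2, Plekha1 or Chst15. Gse1 held 6, all of them among the 18 of Gm20388, with the highest scores at 268.34 and 275.13 in an intron, and 7 regions of all 3 antibodies. Tspear (200 kb) held 8, and 6 regions of all 3 antibodies. Each of these 8 lay 471 to 768 bp from the TSS of a predicted gene inside it, at scores from 53.2 to 167.97. The central windows of these 8 regions resembled each other: a median of 44.7% of the 12-base words of a window, and from 9.52% to 61.4%, recurred in the other windows on either strand. Reads from such copies can be assigned to the wrong one, and these 8 regions are uncertain as separate sites.

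Along the genome, regions of antibodies 1 and 2 only ranged in density from 0.504 regions per Mb on chromosome 14 to 1.16 on chromosome 11 among the autosomes. Chromosome X had 11 regions (0.0643 per Mb) and chromosome Y 0. The regions of all 3 antibodies had 0.0877 per Mb on chromosome X. The nearest region of all 3 antibodies was a median of 217 kb away, and 193 regions (9.73%) had one within 10 kb.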

How the data were processed

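ChIP-Seq peak lists of 3 NEUROD2 antibodies, 1 library each, from P0 mouse cortex were used. Before deposit, the authors aligned the reads to mm10 (Bowtie) and ran MACS separately on every antibody's library against that of the GFP antibody. The deposited score is minus 10 times the log10 of the MACS p-value, not scaled between antibodies, and both scores and the number of peaks depend on read depth, which the files do not give. A deposited list of sites common to all antibodies, with a pooled score, served only to check the classes: none of the 1984 regions touched one of its sites, and 2070 of the 2088 regions of all 3 antibodies did.

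Overlapping peaks (1 bp or more) were merged, and regions were classed by the antibodies present. Midpoints were placed with GENCODE M21, by the closest TSS of any transcript. A window was CpG-rich at a GC content of at least 50% and an observed over expected CpG ratio of at least 0.6. Repeats were the soft-masked bases of the RefSeq GRCm38 assembly. Shares carry Wilson 95% intervals and differences Newcombe intervals, and classes were compared by Fisher's exact test with Benjamini-Hochberg adjustment at 0.05. Intervals cover counting error over regions only. Flanking windows that touched a merged region were left out. Procedures were tested on simulated data. Regions named were the highest scoring of each location, those at the edges of the rule, the genes with most regions, and marked genes of fixed lists. The members, lists and words were chosen with earlier results of these data known. Alternatives concerned the merging, scores, TSSs, windows, flanks and repeats. Python 3.11.15, numpy 2.4.6, scipy 1.17.1 and matplotlib 3.10.9 were used. Results for some genes are not reported here.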

Additional observations from a re-analysis of the deposited data

How the results depend on the processing

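The class held 1095 regions with only peaks scoring at least 100, 3027 with antibody 3 peaks below 100 taken as absent, and 477 with both scores at least 100. With only peaks scoring at least 100, 613 genes were marked. Against the regions of all 3 antibodies, the promoter share differed by -3.23 points (passing) with peaks up to 200 bp apart merged, -3.47 (passing) where 0.5 of the shorter peak had to be shared, -5.52 (passing) with only peaks of at least 100 and -6.95 (passing) with both scores at least 100. The CpG-rich share differed, each time past the threshold, by -3.11 and -3.10 points under the first and the second of these settings, by -6.33 and -7.76 points under the third and the fourth, and by -3.17 points in windows of 100 bp. The share with an E-box differed by 2.27 points, past the threshold, with peaks up to 200 bp apart merged. Within the bands of antibody 2 score the signs turned, without passing: the promoter share differed by 3.16, 2.25 and 4.61 points, the CpG-rich share by 5.26, 4.27 and 2.38, and the E-box share by -1.21 in the lowest and -2.88 in the highest band. Against antibody 1 only, with only peaks of at least 100, the differences in promoter share (8.18 points), E-box share (2.13) and repeat share (-1.67) no longer passed, nor did the E-box share within promoters (8.87). The E-box ratio over flanks was 1.39 within promoters. The CAGCTG difference turned to 0.19 points in windows of 100 bp, and that of the CTCF core to 0.99 and 0.54 points in windows of 100 and 400 bp and 0.11 within promoters, none passing. Of the 160 values computed under alternatives, all but these and the losses given for CACATG and RUNX kept their sign and their side of the threshold, or, for a count or ratio, moved by no more than 1.5 times. The comparison without the regions in Elavl3 and the score bands against antibody 2 only were chosen after seeing the data. No paired analysis was possible because each antibody has 1 library. The causes of these changes were not tested. Depth is unknown, so a missing antibody 3 peak is no measure of absent binding.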
